A study of Rattus norvegicus with 3 samples.

Results

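Sarcomere and Z-disc genes, a set of 40 genes for the thin filament, titin and its partners, the M-band, the Z-disc, stretch sensing and muscle maintenance, were followed in fetal Wistar rat cardiomyocytes kept in different media. Myosins and actins were left out of the set. The members were chosen by gene symbol, and 39 of the 40 had at least 1 probe set annotated with that symbol alone, 64 probe sets in all, of 14218 genes and 20832 such probe sets on the array. Nebl had no such probe set, so its expression was not analysed here. Cells isolated by enzyme digestion from the hearts of Wistar fetuses, an outbred laboratory strain, were plated for 48 hours and then spent 24 hours in medium conditioned by skeletal myoblasts, in medium conditioned by cardiac fibroblasts, or in fresh culture medium as the control. Each medium was represented by 1 Affymetrix 3' expression array. Whether the cells of an array came from 1 or several litters is not given in the sources used here, and no genetic change or drug is named in the labels. The study as titled concerned protection of cardiomyocytes from oxidative stress by skeletal myoblasts through the receptors c-Met and EGFR.

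The sarcomere is the contractile unit of striated muscle. Thin filaments of actin carry tropomyosin and the troponin complex, which switch contraction on with calcium, and are anchored at the Z-disc, while thick filaments of myosin are cross-linked at the M-band and titin spans from Z-disc to M-band. The Z-disc also holds LIM-domain and PDZ-LIM proteins that are known as sensors of mechanical load, and several of their genes are known to be induced by stretch or during hypertrophy of the heart. Fetal heart muscle expresses isoforms, such as slow skeletal troponin I, that are replaced after birth.

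The deposited values were on a log2 scale and centred on the median array of each probe set. Where 2 arrays had values, 0.00 stands for the array in the middle. Of 31099 probe sets, 8002 had 1 value and 5980 had none, and there 0.00 stands for blanks on several arrays. The brightness of a gene is not known from centred values. The label of the cells could therefore not be checked against absolute marker levels. A gene's value is the mean of its probe sets, and a difference of 1 is 2-fold. With 1 array per medium, no difference has a replicate check or a test. The 42 probe sets for transcripts added to the samples differed by up to 0.66 in size between myoblast medium and control, by up to 0.68 between fibroblast medium and control, and by up to 1.02 between the conditioned media. For myoblast medium minus control they ran from -0.01 to 0.66 with a median of 0.29, so they were not spread evenly about 0. The median was 0.09 for fibroblast medium minus control and 0.21 for myoblast minus fibroblast medium.

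Fibroblast-conditioned medium went with larger differences in these genes, in both directions. Set against control, 9 of 39 members exceeded it by 2-fold or more, as did 4.26% of all genes, and 4 fell below it by that much, as did 2.6% of all genes. Members past 2-fold in either direction made up 33.3%, against 6.85% of all genes and 7.74% of the genes with a nonzero value on any array. The median of the members was -0.08, beside 0.00 for all genes, since members on either side of 0 offset each other. The median size of a difference, regardless of sign, was 0.80 for the members and 0.16 for all genes. The share of all genes is not matched for brightness, because the centred values do not allow it.

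Myoblast-conditioned medium went with fewer such differences. Here 3 of 39 members exceeded control by 2-fold or more (1.35% of all genes did) and 1 fell below it by that much (0.844% of all genes). The median of the members was again -0.08, with 0.00 for all genes, and the median size of a difference was 0.32 for the members and 0.09 for all genes. The control array enters both comparisons, so they are not independent of each other. Between the conditioned media, 1 member was higher in myoblast than in fibroblast medium by 2-fold or more (2.12% of all genes) and 5 were lower by that much (3.94%). These 6 differences were between 1.39 and 2.91 in size.

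**Figure D1:**
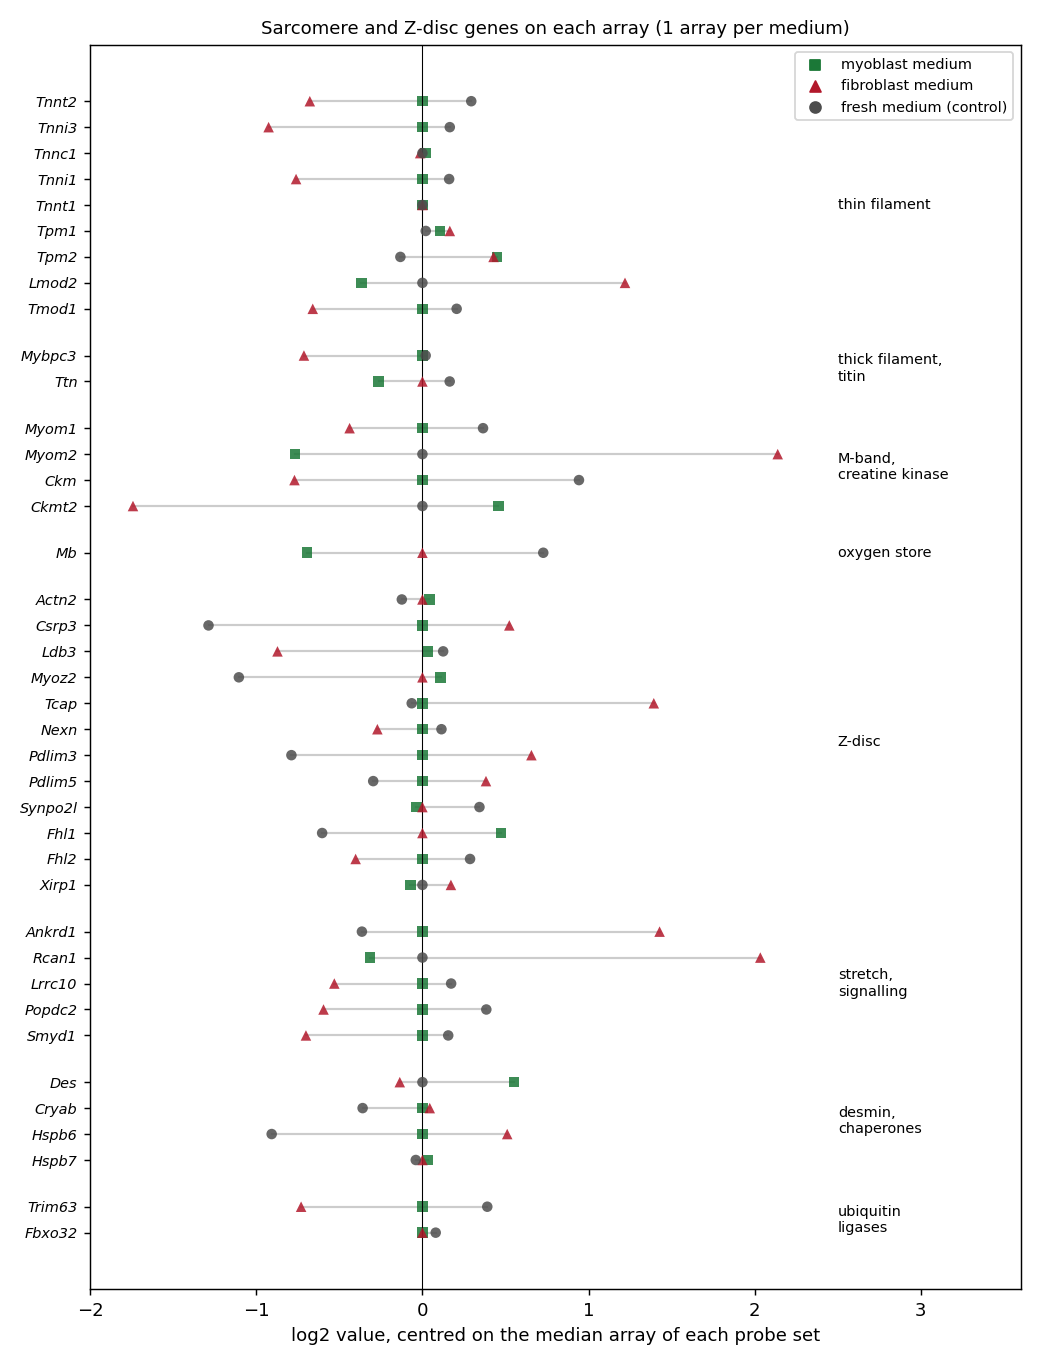
Centred log2 value of each of the 39 measured genes (rows, grouped by role) on the myoblast medium array (squares), the fibroblast medium array (triangles) and the control array (circles); the grey line joins the lowest and the highest array. Myom2 and Rcan1 reach above 2 on the fibroblast medium array, and Ckmt2 lies at -1.74 there, while Csrp3 and Myoz2 are lowest on the control array.

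**Figure D2:**
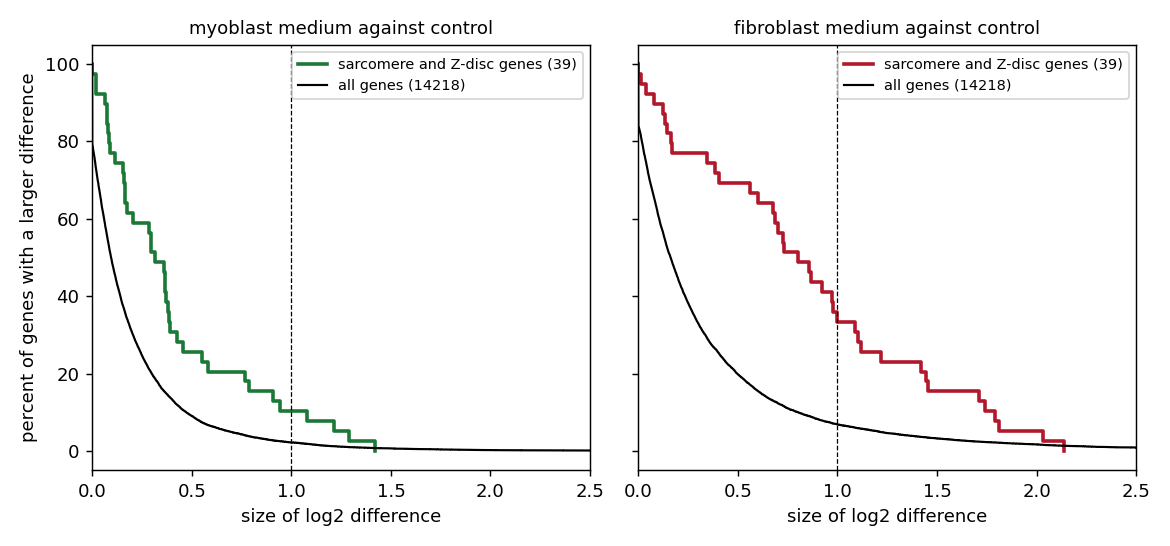
Percent of genes (vertical axis) whose log2 difference from control is larger in size than the value on the horizontal axis, for the 39 sarcomere and Z-disc genes (coloured) and all 14218 genes (black), with myoblast medium on the left and fibroblast medium on the right. At the dashed 2-fold line the members stand at 10.3% for myoblast medium and 33.3% for fibroblast medium, and all genes at 2.19% and 6.85%.

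Promoter sequences of the members were then set beside those of all genes. RefSeq promoters of assembly GRCr8, which run from 250 bases before to 50 bases after a gene's start, matched 32 of the 40 members, with 37 start sites. Tnnc1, Myom2, Csrp3, Tcap, Pdlim3, Ankrd1, Cryab and Fbxo32 were not among them. Each was searched on both strands for the MEF2 box, the CArG box bound by serum response factor, the M-CAT core CATTCC bound by TEAD factors, the AP-1 site TGANTCA and the TATA box TATAAA. The MEF2 box was present in 10.8% of the member promoters and 0.565% of all 33469 promoters, and the CArG box in 13.5% and 1.64%. The M-CAT core was present in 18.9% of member promoters and 14.2% of all promoters, the AP-1 site in 13.5% and 7.33%, and the TATA box in 27% and 14.2%. Start sites of 1 gene share sequence, as in Xirp1, and these shares are a description. The 4 genes with a MEF2 box were Hspb7, Mybpc3, Myoz2 and Ttn, and the 4 with a CArG box were Fhl1, Fhl2, Ldb3 and Nebl. Of these, Myoz2 was at least 2-fold higher in both conditioned media and Fhl1 in myoblast medium, Ldb3 was at -0.997 in fibroblast medium, and the others with a value lay between -0.73 and 0.07 against control.

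The following promoters are those of members that passed 2-fold in a conditioned medium and held at least 1 of the 5 motifs, shown 5′ to 3′ with the matched bases in capitals. They lie at chr2:213852729-213853028, minus strand (Myoz2), chrX:139638246-139638545, plus strand (Fhl1), chr11:45118187-45118486, minus strand (Rcan1), chr1:94934122-94934421, plus strand (Hspb6), chr7:110647693-110647992, minus strand (Mb) and chr5:151816986-151817285, plus strand (Trim63). The first 4 genes were higher than control in a conditioned medium and the last 2 were lower. Myoz2 carries a MEF2 box from base -53 to -44 and an AP-1 site from base 11 to 17 after the start, and Fhl1 a CArG box from base -102 to -93 and a TATA box on the minus strand from base -156 to -151. Rcan1 has an AP-1 site from base -142 to -136 and TATA boxes on both strands that overlap, and Trim63 an M-CAT core on the minus strand and a TATA box. The only motif found in Hspb6 and in Mb was a TATA box. A second Fhl1 start site held none of the motifs, and neither did the promoters of Tnni3, Lmod2, Ckm and Ckmt2, which also passed 2-fold.
Myoz2: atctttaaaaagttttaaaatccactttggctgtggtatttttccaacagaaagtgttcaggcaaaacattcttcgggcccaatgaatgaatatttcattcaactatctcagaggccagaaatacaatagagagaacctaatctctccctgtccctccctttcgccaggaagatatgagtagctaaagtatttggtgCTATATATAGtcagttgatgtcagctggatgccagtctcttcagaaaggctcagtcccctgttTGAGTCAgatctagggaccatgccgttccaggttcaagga
Fhl1: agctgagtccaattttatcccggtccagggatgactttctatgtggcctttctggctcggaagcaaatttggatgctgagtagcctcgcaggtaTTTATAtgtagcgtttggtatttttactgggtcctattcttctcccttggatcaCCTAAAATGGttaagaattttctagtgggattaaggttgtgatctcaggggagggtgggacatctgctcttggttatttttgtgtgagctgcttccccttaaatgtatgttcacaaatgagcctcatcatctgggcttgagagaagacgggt
Rcan1: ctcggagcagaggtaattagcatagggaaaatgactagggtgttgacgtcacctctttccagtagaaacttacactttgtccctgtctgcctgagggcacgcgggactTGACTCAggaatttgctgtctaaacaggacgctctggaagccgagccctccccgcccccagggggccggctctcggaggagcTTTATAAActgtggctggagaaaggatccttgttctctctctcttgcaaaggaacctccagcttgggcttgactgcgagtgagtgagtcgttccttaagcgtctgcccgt
Hspb6: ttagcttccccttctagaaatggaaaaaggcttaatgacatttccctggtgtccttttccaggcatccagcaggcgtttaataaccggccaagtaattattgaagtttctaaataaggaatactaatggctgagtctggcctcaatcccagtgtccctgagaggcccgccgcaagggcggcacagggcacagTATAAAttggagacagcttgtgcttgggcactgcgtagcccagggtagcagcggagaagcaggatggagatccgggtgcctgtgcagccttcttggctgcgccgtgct
Mb: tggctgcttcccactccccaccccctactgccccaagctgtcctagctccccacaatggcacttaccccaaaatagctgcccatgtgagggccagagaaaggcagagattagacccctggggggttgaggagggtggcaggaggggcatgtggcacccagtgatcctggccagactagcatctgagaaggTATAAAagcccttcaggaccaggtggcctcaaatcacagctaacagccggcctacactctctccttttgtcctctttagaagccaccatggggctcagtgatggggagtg
Trim63: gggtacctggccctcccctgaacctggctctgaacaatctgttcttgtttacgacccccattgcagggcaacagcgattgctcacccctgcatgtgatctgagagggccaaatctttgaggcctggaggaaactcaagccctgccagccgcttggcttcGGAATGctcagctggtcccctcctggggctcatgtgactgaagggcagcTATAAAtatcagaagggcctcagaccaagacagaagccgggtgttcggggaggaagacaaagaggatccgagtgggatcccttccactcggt
The letters of the TATA box were thus found in Fhl1, which was higher in myoblast medium. In Fhl1 they lay on the minus strand from base -156 to -151, at the start site shown only. They were also found in Rcan1 and Hspb6, which were higher in fibroblast medium. The same held for Trim63, which was lower there, and for Mb, which was lower in myoblast medium.

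Among the troponin genes, cardiac troponin I was the member that passed 2-fold. Tnni3, which encodes this inhibitory subunit, stood at 0.00 with myoblast medium, -0.93 with fibroblast medium and 0.16 in control. The fibroblast medium array was the low one, at a difference of -1.09 (2.13-fold lower than control), and myoblast medium differed from control by -0.16. Tnni1, the slow skeletal troponin I gene that predominates in the fetal heart, had values of 0.00 with myoblast medium, -0.76 with fibroblast medium and 0.16 in control, a difference of -0.92 for fibroblast medium. Cardiac and slow troponin I thus lay on the same side of control in fibroblast medium and differed from it by similar amounts.

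The tropomyosin-binding subunit troponin T gave an uneven picture. Tnnt2, cardiac troponin T, had a mean of -0.97 in fibroblast medium against control, just short of 2-fold, and of -0.29 in myoblast medium. Its pair of probe sets differed from each other, at -1.84 and -0.11 for fibroblast medium and at -0.57 and -0.02 for myoblast medium. Tnnc1, the calcium-binding troponin C of slow and cardiac muscle, differed from control by 0.02 in myoblast medium and -0.01 in fibroblast medium. Its single probe set was nearly level on the arrays where troponin I differed. Tnnt1, slow skeletal troponin T, had no value on any array and was read as 0.00 throughout.

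Tropomyosin lies along the thin filament and positions troponin. Tpm1 had 7 probe sets whose differences from control in fibroblast medium ran from -0.79 to 2.03, with a mean of 0.14. In myoblast medium they ran from -0.38 to 0.54, with a mean of 0.09. The probe set at 2.03 in fibroblast medium was the only one of the 7 past 2-fold. For Tpm2, the beta-tropomyosin gene, one probe set was at 1.53 and the other at -0.41 in fibroblast medium, while in myoblast medium they were at 0.27 and 0.90. Both genes are spliced into muscle and non-muscle isoforms, and the files do not say which isoform each probe set reads, so neither gene mean stands for all of its transcripts. The gene means of Tpm2 were 0.58 in myoblast medium and 0.56 in fibroblast medium against control, although no probe set was close to the fibroblast medium mean.

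The genes for proteins at the pointed end of the thin filament, which faces the M-band, went opposite ways in fibroblast medium. Lmod2, the gene of leiomodin, which elongates thin filaments, stood at -0.37 with myoblast medium, 1.22 with fibroblast medium and 0.00 in control. Fibroblast medium was the high array, 2.33-fold above control and 3.01-fold above myoblast medium. Tmod1, the gene of tropomodulin, which caps the filament and limits its length, was at 0.00 with myoblast medium, -0.66 with fibroblast medium and 0.21 in control. Its difference from control was -0.87 in fibroblast medium, with its probe sets at -1.04 and -0.70, and -0.21 in myoblast medium.

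Of the thick filament and titin genes, neither passed 2-fold. Mybpc3, which encodes cardiac myosin-binding protein C, differed from control by -0.02 in myoblast medium and -0.73 in fibroblast medium. Ttn, the gene of the giant elastic protein titin, differed by -0.43 in myoblast medium and -0.16 in fibroblast medium.

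The M-band genes diverged. Myom2, which encodes M-protein, a myomesin-related cross-linker, stood at -0.77 with myoblast medium, 2.14 with fibroblast medium and 0.00 in control. Fibroblast medium was 4.40-fold above control, the largest positive difference of the set in this comparison, and the difference of -2.91 between myoblast and fibroblast medium was the largest in size of all members. Myom1, the gene of myomesin itself, was on the other side of control, at -0.80 in fibroblast medium and -0.36 in myoblast medium.

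Creatine kinases buffer ATP at the M-band and at the mitochondria. Ckm, the cytosolic muscle form, stood at 0.00 with myoblast medium, -0.77 with fibroblast medium and 0.94 in control. Control was the high array, with differences of -0.94 for myoblast medium and -1.71 for fibroblast medium (3.28-fold). Ckmt2, the sarcomeric mitochondrial form, stood at 0.46 with myoblast medium, -1.74 with fibroblast medium and 0.00 in control. Fibroblast medium lay 3.35-fold under control, the most negative difference from control in the set, and the gene was the single member past 2-fold on the high side in myoblast against fibroblast medium (2.20). The creatine kinase genes lay on opposite sides of control in myoblast medium, Ckm at -0.94 and Ckmt2 at 0.46. The difference of Ckmt2 was within the size of 0.66 reached by the added control transcripts.

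Mb, the gene of the oxygen-binding protein myoglobin, was the single member past 2-fold on the low side in myoblast medium. It stood at -0.69 with myoblast medium, 0.00 with fibroblast medium and 0.73 in control. Myoblast medium was 2.68-fold below control, and fibroblast medium differed from control by -0.73. Unlike the other members past 2-fold on the low side, its lowest array was the myoblast medium one.

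Within the Z-disc group, several genes were lowest in fresh medium. Of its 12 measured members, 3 exceeded control by 2-fold or more in myoblast medium, where 1.35% of all genes did. In fibroblast medium 4 did, beside 4.26% of all genes. On the low side 0 passed 2-fold in either medium, where 0.844% (myoblast) and 2.6% (fibroblast) of all genes did. Ldb3 was just short of that limit, at -0.997 in fibroblast medium. Csrp3, the gene of muscle LIM protein, a component of the stretch-sensing machinery, stood at 0.00 with myoblast medium, 0.52 with fibroblast medium and -1.29 in control. Control was well below both conditioned media, by 2.44-fold against myoblast medium and 3.51-fold against fibroblast medium. Myoz2, which encodes calsarcin-1, a Z-disc protein that binds and restrains calcineurin, stood at 0.11 with myoblast medium, 0.00 with fibroblast medium and -1.10 in control. Its differences from control were 1.22 in myoblast medium and 1.10 in fibroblast medium, and the conditioned media differed by 0.11.

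Fhl1, the gene of a four-and-a-half LIM domain protein known to rise in hypertrophy, averaged 0.47 with myoblast medium, 0.00 with fibroblast medium and -0.60 in control. The difference from control was 1.08 in myoblast medium and 0.60 in fibroblast medium. Of its 3 probe sets, 1 had no value on any array, and the others were at 1.31 and 1.93 in myoblast medium and at 1.07 and 0.74 in fibroblast medium. With the median of the probe sets in place of the mean, the difference in myoblast medium was 0.98, below 2-fold. Fhl2, a family member that is enriched in the heart, was on the other side of control, at -0.29 in myoblast medium and -0.69 in fibroblast medium. The LIM-only genes had opposite signs in each conditioned medium. However, Fhl2 in myoblast medium (-0.29) and Fhl1 in fibroblast medium (0.60) were within the largest sizes of the added control transcripts, 0.66 and 0.68.

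Pdlim3, the gene of the actinin-associated LIM protein, stood at 0.00 with myoblast medium, 0.66 with fibroblast medium and -0.79 in control. It was 2.72-fold higher than control in fibroblast medium and 1.73-fold higher in myoblast medium. Pdlim5, which encodes the related protein ENH, had a mean of 0.68 in fibroblast medium and 0.30 in myoblast medium against control. One of its probe sets had no value on any array and was read as 0.00, and the others ran from 0.34 to 1.71 in fibroblast medium. Ldb3, the gene of the third PDZ-LIM protein of the set, known as ZASP or Cypher, differed the other way in fibroblast medium, at -0.997, just short of 2-fold. Of its 6 probe sets, 1 had no value on any array and was read as 0.00. The others ran from -1.68 to -0.71 in fibroblast medium, and 4 of them passed 2-fold on the low side. With only probe sets that had 2 values, the mean was past 2-fold, at -1.20. The median over its probe sets was past 2-fold, at -1.03. In myoblast medium they ran from -0.27 to 0.14 with a mean of -0.09.

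Tcap, the gene of telethonin, which caps titin at the Z-disc, stood at 0.00 with myoblast medium, 1.39 with fibroblast medium and -0.06 in control. Only the fibroblast medium array was high, 2.75-fold above control, while myoblast medium differed from control by 0.06. The remaining Z-disc genes were close to control. Actn2, which encodes the main cross-linker of the Z-disc, differed by 0.17 in myoblast medium and 0.12 in fibroblast medium. Nexn, the gene of the actin-binding protein nexilin, was at -0.11 and -0.39 in those media, and Synpo2l, which encodes an actin-associated Z-disc protein, at -0.38 and -0.34. Xirp1, the gene of the actin-binding repeat protein Xin, was at -0.07 and 0.17.

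**Figure D3:**
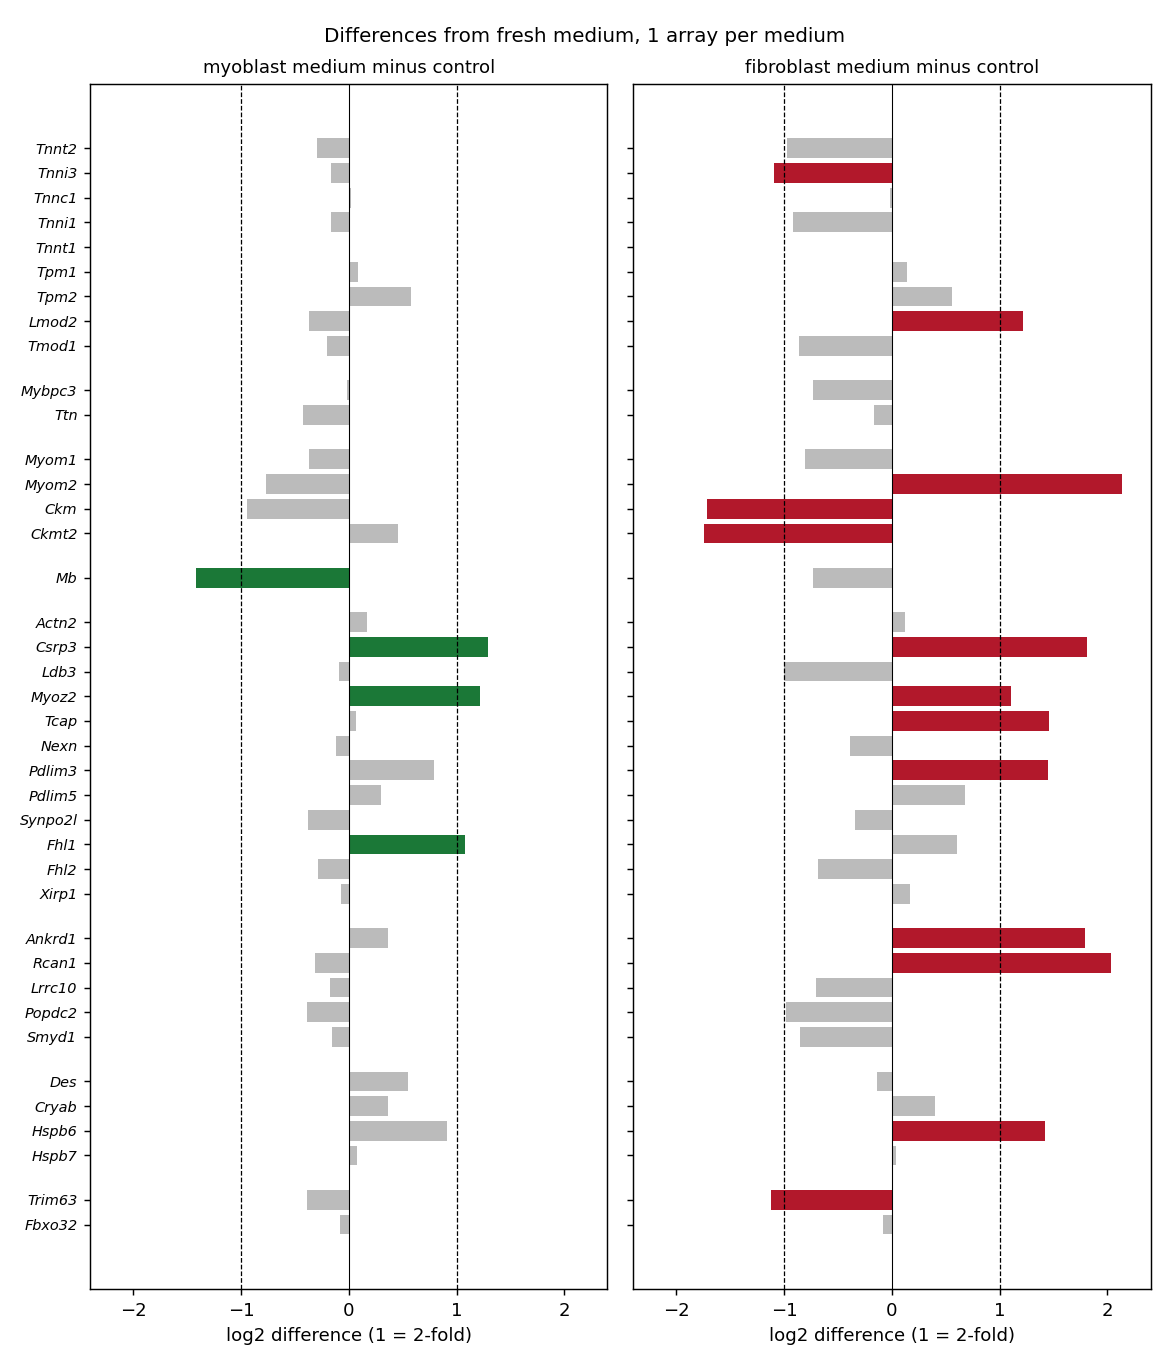
Log2 difference from control of each measured gene in myoblast medium (left) and fibroblast medium (right), grouped by role in the order of the text, with 1 array per medium; coloured bars pass the dashed 2-fold lines. In myoblast medium 3 genes pass on the high side and 1 on the low side, and in fibroblast medium 9 and 4.

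Ankrd1 and Rcan1 were the high members of the stretch and signalling group. Ankrd1, which encodes a titin-associated ankyrin repeat protein that is induced by stretch, averaged 0.00 with myoblast medium, 1.43 with fibroblast medium and -0.36 in control. It was 3.46-fold higher than control in fibroblast medium, where its probe sets gave 1.53 and 2.05, and differed by 0.36 in myoblast medium. Rcan1, a regulator of calcineurin whose gene is itself a calcineurin target, stood at -0.32 with myoblast medium, 2.03 with fibroblast medium and 0.00 in control. It was 4.10-fold higher than control in fibroblast medium and 5.10-fold higher there than in myoblast medium.

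The other 3 genes of that group were below control in both media and within 2-fold. Popdc2, which encodes a membrane protein of heart and muscle that binds cyclic AMP, was at -0.38 in myoblast medium and -0.98 in fibroblast medium. Smyd1, the gene of a muscle methyltransferase required for myofibril assembly, was at -0.16 and -0.86 in those media. Lrrc10, a heart-restricted leucine-rich repeat gene, was at -0.17 and -0.70. In each of them the fibroblast medium array was the lowest of the 3 arrays.

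Desmin links neighbouring myofibrils at the Z-disc, and small heat shock proteins act as its chaperones. Hspb6, the gene of HSP20, stood at 0.00 with myoblast medium, 0.51 with fibroblast medium and -0.91 in control. It was 2.67-fold higher than control in fibroblast medium and 1.88-fold higher in myoblast medium, so control was the low array, as for Csrp3, Pdlim3 and Myoz2. Cryab, the gene of alpha-B-crystallin, a desmin chaperone, differed from control by 0.36 in myoblast medium and 0.40 in fibroblast medium. Hspb7, a heart-enriched relative, differed by 0.07 and 0.04 in those media. Des, the gene of the intermediate filament protein desmin, was at 0.55 in myoblast medium and -0.14 in fibroblast medium.

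The muscle ubiquitin ligases, known from muscle atrophy, lay at or below control. Trim63, the gene of MuRF1, stood at 0.00 with myoblast medium, -0.73 with fibroblast medium and 0.39 in control. Fibroblast medium was 2.17-fold below control for it and differed by -0.39 in myoblast medium. Fbxo32, the gene of atrogin-1, had a value on 1 array only and differed from control by -0.08 in both conditioned media.

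Members just past and just short of the 2-fold limit lay close together in fibroblast medium. Tnni3 (-1.09) and Trim63 (-1.12) were just past it on the low side, and Ldb3 (-0.997), Popdc2 (-0.98) and Tnnt2 (-0.97) were just short of it. Counting these last 3, 11 members were between 1.5-fold and 2-fold lower in fibroblast medium, the other 8 being Tnni1, Tmod1, Mybpc3, Myom1, Mb, Smyd1, Lrrc10 and Fhl2, and 2 were between 1.5-fold and 2-fold higher. With the limit at 1.5-fold, fibroblast medium had 15 members below control (6.97% of all genes) and 11 above it (9.09%), and myoblast medium had 3 below (2.86%) and 5 above (3.77%). With the limit at 3-fold, fibroblast medium had 4 members above control (1.84% of all genes), namely Myom2, Rcan1, Csrp3 and Ankrd1, and 2 below (0.992%), namely Ckm and Ckmt2. Myoblast medium had 0 members past 3-fold on either side, where 0.38% of all genes were above and 0.148% below. Between the conditioned media, 12 members were above (6.65% of all genes) and 7 below (8.34%) in myoblast medium at 1.5-fold, and 1 above (0.591%) and 3 below (1.79%) at 3-fold. Among the members, the low side in fibroblast medium held more of the differences between 1.5-fold and 2-fold. The share of all genes in that band was not counted directly. Of 14218 genes, 991 (6.97%) lay 1.5-fold or more below control in fibroblast medium, and 369 (2.6%) lay 2-fold or more below. Above control these counts were 1293 (9.09%) and 605 (4.26%). The high side held more of the members past 3-fold, as it did for all genes (1.84% above and 0.992% below).

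Probe sets were also counted singly. In fibroblast medium, 14 of the 64 member probe sets lay 2-fold or more above control (4.32% of all probe sets with 1 symbol) and 12 lay that far below (2.83%). In myoblast medium, 4 lay above (1.33% of all) and 1 below (0.874%). Of the 39 genes, 13 had several probe sets. In fibroblast medium, Tpm1 and Tpm2 had probe sets on both sides of control, and in myoblast medium Tpm1 and Ldb3 did.

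**Figure D4:**
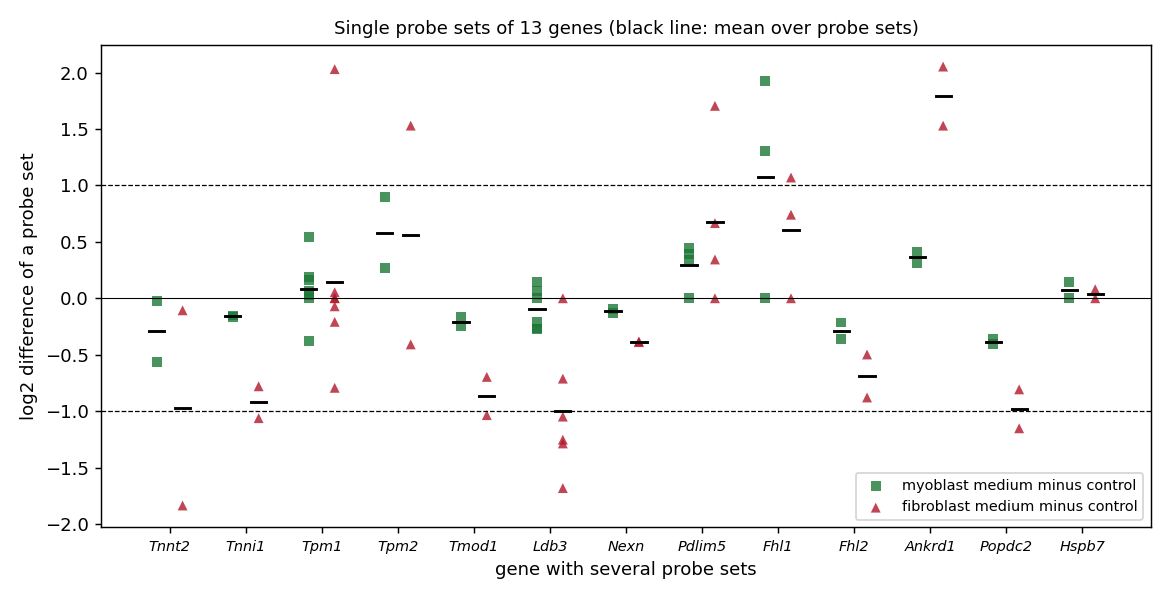
Log2 difference from control of each probe set (points) and their mean (black line) for the 13 genes with several probe sets, in myoblast medium (squares) and fibroblast medium (triangles); dashed lines mark 2-fold. The 7 probe sets of Tpm1 spread from -0.79 to 2.03 in fibroblast medium, while those of Nexn and Ankrd1 lie on the same side of control.

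Other sarcomere and Z-disc genes, listed apart from the members and again without myosins and actins, lay on both sides of control as well. Of 67 listed, 60 were measured. In fibroblast medium 8 exceeded control by 2-fold or more (4.26% of all genes did) and 7 fell below it by that much (2.6%), with a median of 0.04. In myoblast medium 1 was higher (1.35% of all genes) and 1 lower (0.844%), counts near those shares, with a median of 0.00. The largest differences were those of Mybpc2, the fast skeletal myosin-binding protein C, at 1.003 in myoblast medium and 2.35 in fibroblast medium, and of Popdc3, a relative of Popdc2, at -0.37 and -2.01. Pdlim1, another PDZ-LIM gene, followed at 0.21 and 1.83, and Mybphl, a myosin-binding protein H-like gene, at -1.07 and -1.82. The remaining Popeye family gene, Bves, named here after its values were seen, was at 0.35 in myoblast medium and -0.14 in fibroblast medium, while Popdc2 and Popdc3 were below control in both.

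Markers of several cell types differed between the same arrays. Beside the counts below, 4.26% of all genes were 2-fold or more above control in fibroblast medium and 2.6% below it. In myoblast medium these shares were 1.35% and 0.844%, and small counts in a list are to be read beside them. Of 19 measured cardiomyocyte genes outside the set, 4 lay below control by 2-fold or more in fibroblast medium and 0 above it (median -0.38), with Myl7 at -2.30 and Myh6 at -2.11, and in myoblast medium 1 was higher and 0 lower (median -0.16), with Myh7 at 1.43. Macrophage markers were at least 2-fold higher in fibroblast medium for 9 of 10 genes (median 2.53) and in myoblast medium for 1 of 10 (median -0.48). Endothelial markers were at least 2-fold lower for 10 of 12 genes in fibroblast medium (median -2.87) and for 5 of 12 in myoblast medium (median -0.88). Smooth muscle and myofibroblast markers were at least 2-fold higher for 4 of 7 genes in fibroblast medium (median 1.15) and 3 of 7 in myoblast medium (median 0.27). Fibroblast and matrix markers had medians of -0.07 and -0.13 in fibroblast and myoblast medium. Of 10 such genes, 1 was at least 2-fold higher and 2 lower in fibroblast medium, and 0 higher and 2 lower in myoblast medium. Fbln1 was at -2.07 in fibroblast medium and -1.03 in myoblast medium, Pdgfra at -1.48 and -1.42, and Thy1 at 1.69 and -0.04. Of 10 skeletal muscle markers, 0 passed 2-fold against control in either medium, with medians of -0.04 in fibroblast medium and 0.00 in myoblast medium. The nearest to it was Myh2, at 0.999 in fibroblast medium, and the myogenic factor gene Myod1 was at -0.04 there and 0.00 in myoblast medium. Of 3 erythroid markers, Hbb, a haemoglobin gene, lay 2-fold or more below control in both media, at -1.001 in myoblast medium and -4.32 in fibroblast medium, and the medians were -0.14 and -0.42. In such bulk samples, fewer cells of a type and less RNA per cell cannot be told apart. Levels summed over a marker list cannot be given from centred values, and the part of these cell types in the members' differences was not tested.

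As a measure of RNA quality, the GAPDH probe sets at the 3′ and 5′ ends differed from control by 0.22 and 0.20 in myoblast medium and by -0.04 and -0.03 in fibroblast medium. The beta-actin probe sets were at 0.19 at the 3′ end and -0.03 at the 5′ end in fibroblast medium, and at -0.15 and 0.00 in myoblast medium. The hexokinase probe sets were at -0.28 at the 3′ end and -1.13 at the 5′ end in fibroblast medium, and at 0.08 and 0.08 in myoblast medium. The part of this in the members' differences was not tested.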

How the data were processed

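Total RNA of 3 cardiomyocyte cultures, 1 per medium, was hybridised to 1 Affymetrix array each. RMA, named in the submitters' processing notes, gave log2 values, and the deposited log2 values are centred per probe set on the middle array. This was read from the table: of 31099 probe sets, 17117 had 2 values, always of opposite sign, 8002 had 1, 5980 had none and 0 had 3. Blanks were read as 0. The log base follows from RMA, whose version is not given in the sources used here. Symbols came from the platform annotation, which is dated, and were brought up to date by Entrez ID from RefSeq's GRCr8 genes (20764 of 20832 probe sets with 1 symbol). Gene values are means over such probe sets, and differences of at least 1 were counted. No test of the conditions exists.

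The members, lists and motifs were chosen with earlier results of these data known. Every member is accounted for. Members past 2-fold in any comparison are given on every array, and up to 4 genes of another list by size of difference. Bves, Myod1 and the genes outside the set under the other observations were named beyond this rule. The planned comparison of member proteins was not analysed here. Alternatives were the median of probe sets, the probe set with the widest range, leaving out cross-hybridising probe sets, only probe sets with 2 values, centring of each array, and limits of 1.5-fold and 3-fold. The counting and motif steps were tested on simulated data. Python 3.11.15, NumPy 2.4.6, pandas 2.3.3 and Matplotlib 3.10.9 were used.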

Additional observations from a re-analysis of the deposited data

How the results depend on the processing

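Signs of the 15 members past 2-fold in any comparison held in the comparison where they passed it under every alternative for probe sets and scaling. For 13 of the 15 it could not be otherwise, because each has 1 probe set, which these alternatives cannot move, and centring shifted no array. Of the other 2, Ankrd1 moved by less than the SD of the added control transcripts and Fhl1 moved by more in 3 values, at 1.93 (widest probe set) and 1.62 (only probe sets with 2 values) in myoblast medium against control and at 1.18 for myoblast against fibroblast medium (widest probe set). With the median of probe sets Fhl1 was at 0.98 against control, below 2-fold. With the widest probe set, 9 members passed 2-fold on the low side in fibroblast medium against control, Tnnt2, Tnni1, Tmod1, Ldb3 and Popdc2 having joined, and 4 were 2-fold higher and 8 lower in myoblast than in fibroblast medium. Tpm1 (2.03), Tpm2 (1.53) and Pdlim5 (1.71) were then past 2-fold in fibroblast medium against control. With only probe sets that had 2 values, 2 members were 2-fold higher in myoblast than in fibroblast medium, and Ldb3 (-1.20) and Pdlim5 (1.19) passed 2-fold in fibroblast medium against control. Shares of all genes were counted for the mean over probe sets only. The counts under these other choices of probe sets therefore have no such share beside them. Taking the widest probe set favours larger differences in any gene with several probe sets, so its higher counts are not a result about the members. At 1.5-fold, 5 members were higher and 3 lower in myoblast medium against control, 15 were lower in fibroblast medium against control, and 12 were higher in myoblast than in fibroblast medium. At 3-fold these counts against control were 0 and 0 in myoblast medium and 4 higher and 2 lower in fibroblast medium, and 3 were lower in myoblast than in fibroblast medium. The members' medians kept their sign throughout. No paired analysis was possible because each medium had 1 array. Signal over background is not known from centred values, so dim members cannot be told from bright ones.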

Other observations

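Outside the set, PDZ-LIM and cysteine-rich LIM genes that are known from actin-rich and smooth muscle cells were above control in fibroblast medium. These genes were picked from the fixed list after their values were seen. Pdlim2 differed from control by -0.03 in myoblast medium and 1.57 in fibroblast medium, Pdlim7 by 0.21 and 1.38, and Pdlim4 by -0.25 and 0.66. Csrp1 was at 0.78 in myoblast medium and 1.42 in fibroblast medium, and Csrp2 at 0.60 and 1.11, beside their muscle relative Csrp3 at 1.29 and 1.81. The non-muscle actinin gene Actn1 was at 0.40 and 1.29, while its Z-disc relative Actn2 was at 0.17 and 0.12. Lower genes of the same list included Lrrc39, an M-band gene, at 0.11 in myoblast medium and -1.60 in fibroblast medium, Fhod3, a formin of the cardiac sarcomere, at -0.45 and -1.29, and Mypn, the gene of the Z-disc protein myopalladin, at -0.77 and -1.22.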
